A study of Arabidopsis thaliana with 4 samples.

Results

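ETFQO (AT2G43400), D2HGDH (AT4G36400), AT4G33150 and ALDH6B2 (AT2G14170) are 4 Arabidopsis genes for enzymes that act in amino acid breakdown or pass on its electrons. They were chosen by name, as the genes of alternative electron entry into respiration and of lysine and valine breakdown. Earlier results of these data were known at that point, so their shared direction is a description and not independent evidence. Each had 1 probe set that names no other gene, so 4 of 13350 genes with such a probe set are described here, and all 4 passed the filter on low signals.

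When sugar is short, plant cells oxidise amino acids to keep respiration supplied. Electrons taken from some of these substrates do not enter the respiratory chain through its first complex. They are collected by the electron transfer flavoprotein, a soluble carrier of the mitochondrial matrix made of an alpha and a beta subunit, and ETFQO, an enzyme of the inner membrane, passes them on to ubiquinone. D2HGDH oxidises D-2-hydroxyglutarate, a product of lysine breakdown, and is one of the enzymes that load this carrier. AT4G33150 encodes the bifunctional lysine-ketoglutarate reductase and saccharopine dehydrogenase (LKR/SDH), which takes the first steps of lysine breakdown. ALDH6B2 encodes the methylmalonate semialdehyde dehydrogenase of the valine pathway.

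The study asked which transcripts respond to KIN10 (AT3G01090), a catalytic subunit of the kinase SnRK1 that signals low energy. Mesophyll protoplasts, leaf cells without their walls, received 1 mg of either control plasmid DNA or a plasmid expressing KIN10, followed by 6 h under light, so that both groups had been transfected. Each group has 2 Affymetrix arrays, 1 from each of 2 experiments that the design text describes as done by different people with their own plants, soil, growth chamber, DNA and array facility, and within an experiment both transfections used 1 pool of protoplasts from 36 plants. KIN10 was expressed transiently, and the labels name neither the genotype of the plants nor the promoter on the plasmid.

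Between any pair of arrays, Pearson's r of the log2 signals was 0.791 to 0.931 across the 13648 probe sets tested, which are not independent replicates. In the whole comparison 2270 probe sets were called higher with KIN10 (16.6%) and 2238 lower (16.4%), which makes 33.0% called, where called means an adjusted p under 0.05 in limma. Scaled instead to the 18 control probe sets named bioB, bioC, bioD and cre, 1318 were called higher and 4301 lower. The median change of all probe sets was then -0.34. This is called the spike-in scale below, and whether it follows the amount of RNA per cell was not tested. Of 6 mesophyll markers listed, 2 had a probe set of their own: RCA, with signals from 17903 to 39110, and LHCB4.1, from 24361 to 41796. Both were called higher with KIN10, with log2 changes of 0.54 ± 0.17 and 0.62 ± 0.19 (SE, limma adjusted p = 0.0303 and 0.0268), and neither call held on the spike-in scale (limma adjusted p = 0.396 and 0.248). The guard cell factor FMA, the one tested marker of other leaf cells, had signals from 146 to 586 and was not called (limma adjusted p = 0.381). Another guard cell marker was removed by the filter, and markers of epidermis, trichomes and phloem are not analysed here. Whether the makeup of the cells had a part in the results below was not tested. The KIN10 transcript is not analysed here, so the labels were not checked against it.

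With KIN10 all 4 genes rose. AT4G33150 rose 7.77-fold, ETFQO 5.90-fold, ALDH6B2 4.49-fold and D2HGDH 1.81-fold, against a share of 16.6% of all probe sets called higher. The median log2 change of the 4 genes was 2.36, and that of all 13648 probe sets was 0.02. On the deposited signals both KIN10 arrays lay above both control arrays for each of the 4 genes, which was so for 21.9% of all probe sets. AT4G33150, ETFQO and ALDH6B2 were at least 2-fold higher in each experiment, as were 6.81% of all probe sets. In RNA from many cells, more cells of a type and more RNA per cell cannot be told apart.

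**Figure D1:**
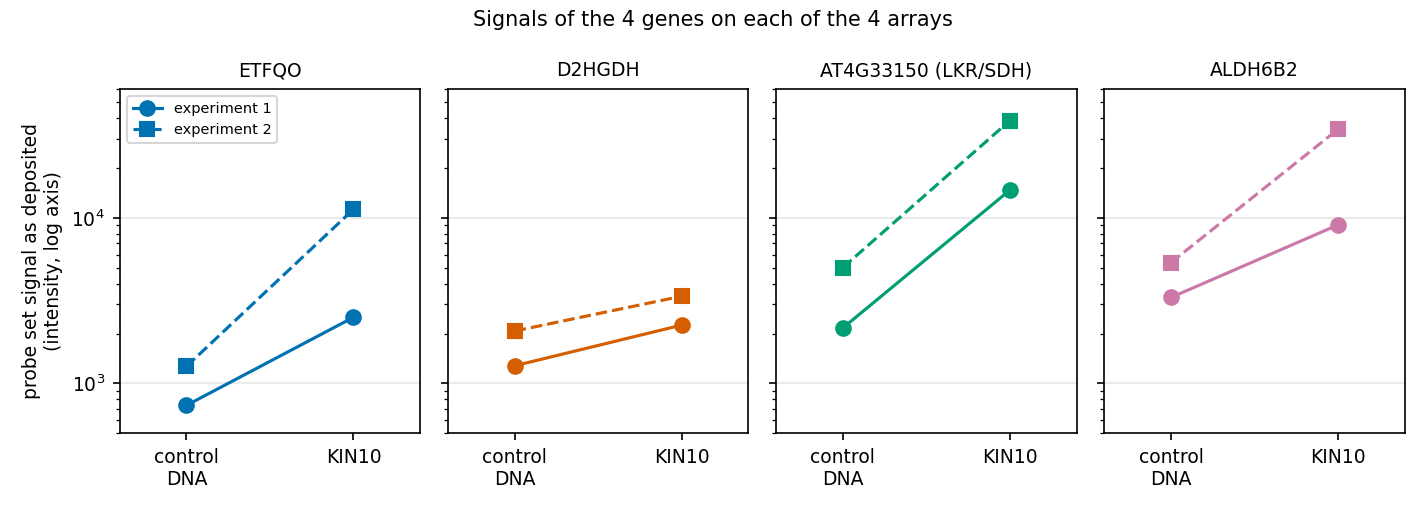
Deposited probe set signal (intensity, log axis) of the 4 genes on each array, with a line joining the control DNA and KIN10 arrays of an experiment. Every line rises, the experiment 2 line lies above that of experiment 1 in each panel, and the lines of D2HGDH are the flattest.

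For ETFQO, the last step of the flavoprotein route before ubiquinone, the signal was 736 on the control array and 2506 on the KIN10 array of experiment 1, and 1267 and 11262 in experiment 2. The groups did not overlap, and the KIN10 array of experiment 1 was 1.98 times the control array of experiment 2. The KIN10 array of experiment 2 stood well above the other 3. The log2 change was 2.56 ± 0.31 (SE, n = 2 arrays per group, limma adjusted p = 1.36e-04, 95% interval 1.88 to 3.24). It was 1.79 in experiment 1 and 3.33 in experiment 2, both outside this interval. Each experiment lay 0.77 from the mean, farther than this SE, which limma draws towards the spread of other probe sets. The fold in experiment 2 was 2.92 times that in experiment 1 (10.1 against 3.45), and 3.08% of all probe sets had a gap between experiments of this size or more.

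D2HGDH, which feeds the same route, had signals of 1277 and 2248 in experiment 1 and of 2069 and 3359 in experiment 2, control first. The groups did not overlap but came close: the lower KIN10 array was 1.09 times the higher control array. The log2 change was the smallest of the 4 genes, 0.86 ± 0.20 (SE, n = 2 arrays per group, limma adjusted p = 0.00753, 95% interval 0.42 to 1.30). It was also the most even, with 0.84 in experiment 1 and 0.88 in experiment 2. Of all probe sets, 11.8% had a change at least this high. On the spike-in scale it was not called (0.50, limma adjusted p = 0.0649).

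AT4G33150, at the start of lysine breakdown, had signals of 2159 and 14686 in experiment 1 and of 5003 and 38599 in experiment 2. Here the lower KIN10 array was 2.94 times the higher control array, the widest separation of the 4 genes. The log2 change was 2.96 ± 0.18 (SE, n = 2 arrays per group, limma adjusted p = 2.30e-06, 95% interval 2.55 to 3.36), with 2.79 in experiment 1 and 3.13 in experiment 2. Of the 13648 probe sets 139, or 1.02%, changed by this much or more. It was the one gene of the 4 also called without the experiment as a block (limma adjusted p = 0.0470).

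ALDH6B2, of valine breakdown, had signals of 3301 and 9058 in experiment 1 and of 5362 and 34221 in experiment 2. The groups did not overlap, and the lower KIN10 array was 1.69 times the higher control array. The log2 change was 2.17 ± 0.27 (SE, n = 2 arrays per group, limma adjusted p = 1.88e-04, 95% interval 1.56 to 2.77). As for ETFQO, the experiments differed in size, with 1.48 in experiment 1 and 2.86 in experiment 2. These lay 0.69 either side of the mean, again farther than the SE and outside the interval. The fold was 2.79 in experiment 1 and 7.24 in experiment 2.

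These calls rest on the pairing of arrays within an experiment. Without the block ETFQO (limma adjusted p = 0.0988), ALDH6B2 (0.116) and D2HGDH (0.277) were not called, at the same log2 changes, when 3.07% of all probe sets were called higher. Single arrays were then left out, also with no block. With 1 array then in a group, each fit took its spread mostly from other probe sets. The prior was 37.6 and 10.2 degrees of freedom without the KIN10 arrays of experiments 1 and 2, and infinite without either control array. Without the KIN10 array of experiment 2 ETFQO changed by 1.37 (limma adjusted p = 0.0987), ALDH6B2 by 1.10 (0.143) and D2HGDH by 0.46 (0.598), none of them called, and AT4G33150 by 2.15 (0.0217). Without the KIN10 array of experiment 1 the changes were 3.76, 3.24, 1.26 and 3.77 in that order, and all were called. D2HGDH was not called without the control array of experiment 1 (0.48) or of experiment 2 (1.24) either. An exact permutation test on 2 arrays against 2 cannot give a two-sided p below 0.333, so it was not used.

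**Figure D2:**
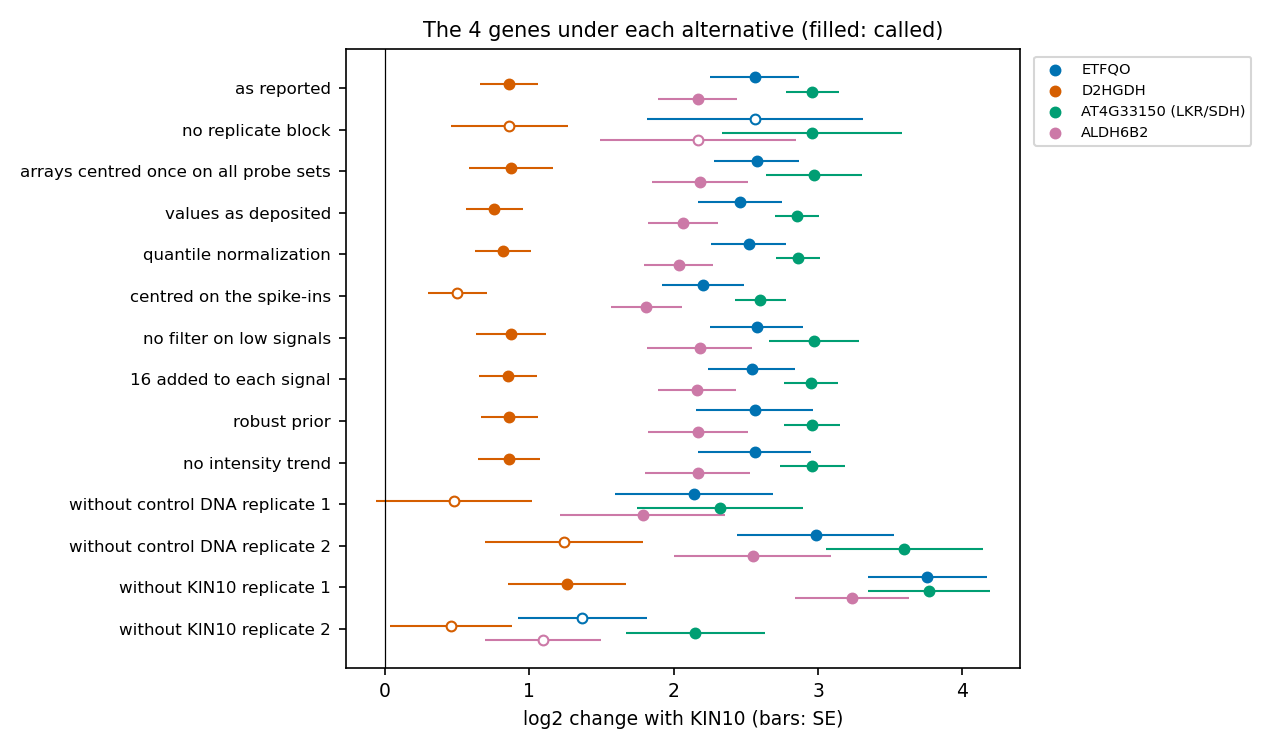
Log2 change with KIN10 (horizontal axis, with the SE as bars) of the 4 genes as reported and under each alternative (rows); filled points were called in limma and open points were not. All points lie above 0, D2HGDH runs from 0.46 to 1.26, and AT4G33150 is filled in every row with all 4 arrays. In rows with 1 array left out a group has 1 array, and filling there rests mostly on the spread of other probe sets.

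The 4 genes also shared a difference between the control arrays, neither of which received the KIN10 plasmid. After the arrays were centred, each was higher on the control array of experiment 2 than on that of experiment 1, by 1.27 on the log2 scale for AT4G33150, 0.84 for ETFQO and 0.76 for both ALDH6B2 and D2HGDH. Of all probe sets, 47.2% were higher on that array, and 6.84% by at least as much as D2HGDH. The leucine breakdown gene IVD (1.50) and the carrier subunit genes ETFALPHA (1.07) and ETFBETA (0.73) were higher there too. So were NDB2 (0.69) and ATBCAT-5 (0.70), list genes that were not called higher with KIN10. Other list genes were lower there, such as AT5G38710 (-1.26) and ALDH2C4 (-0.83). With 1 control array per experiment this difference has no replicate check, and plants, operator, DNA and facility cannot be told apart in it. Between the KIN10 arrays the gap was as large for D2HGDH (0.80) and larger for AT4G33150 (1.62), ALDH6B2 (2.14) and ETFQO (2.39).

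The order of the 4 changes depended on the experiment at its upper end. D2HGDH changed least in both, by 0.64 less than the next gene, ALDH6B2, in experiment 1 and by 1.98 less in experiment 2. AT4G33150 changed most in experiment 1, by 1.00 more than ETFQO, whereas in experiment 2 ETFQO was 0.20 above AT4G33150. These differences between changes are log2 values with 1 pair of arrays per experiment, and they were not tested.

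**Figure D3:**
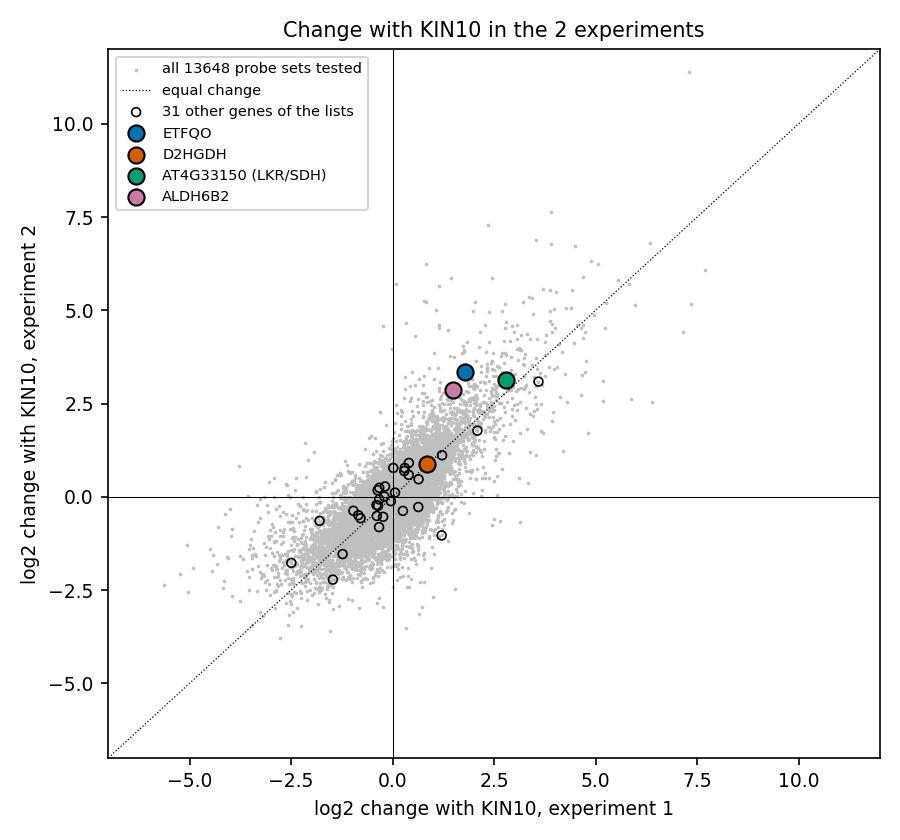
Log2 change with KIN10 in experiment 1 (horizontal) against experiment 2 (vertical) for all 13648 probe sets tested (grey), the 31 other genes of the pathway lists (open circles) and the 4 genes (coloured). D2HGDH and AT4G33150 lie near the dotted line of equal change, and ETFQO and ALDH6B2 lie above it.

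Likeness of pattern was measured as the Euclidean distance between log2 signals over the 4 arrays, each gene centred on its own mean. Signals were not scaled, so genes that change by different amounts lie apart even where they rise and fall together. The search covered 7467 other probe sets with a single gene name. The patterns of ETFQO and ALDH6B2 were 0.44 apart, and 2 of those probe sets lay closer to ETFQO than ALDH6B2 did: AT4G28240 (0.38) and AT5G04390 (0.42), followed by AT4G01130 (0.49). AT4G28240 had signals of 120 and 457 in experiment 1 and of 209 and 1431 in experiment 2, a change of 1.95 and then 2.96. ALDH6B2 itself was nearest to AT4G16260 (0.13), to the beta-glucosidase gene BGLU45 (0.29) and to AT1G05340 (0.34). BGLU45 changed by 1.35 and 2.62 in the experiments. Neighbours were picked for a like pattern, so its larger change in experiment 2 is not a separate result.

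AT4G33150 was nearest to AT2G40420 (0.34), AT1G65510 (0.34) and AT1G10140 (0.39). The nearest of the other members was ETFQO, at 0.74, with 15 named probe sets closer. D2HGDH had closer neighbours: AT1G19740 (0.05), the drought-induced gene DI19 (0.05) and the photosystem I subunit gene PSAE-1 (0.06). PSAE-1 changed by 0.76 in experiment 1 and 0.88 in experiment 2. No other member was near D2HGDH on this distance, the nearest being ALDH6B2 at 1.61, and D2HGDH also had the smallest change of the members.

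The other genes of the flavoprotein route were called higher too, most of them with a smaller change than ETFQO. All 5 genes listed for it were measured and all were called higher, beside 16.6% of all probe sets, with a median change of 0.86. ETFQO and D2HGDH are among the 5, and the other 3 had a median change of 0.65. On the spike-in scale 2 of the 5 were called higher, and without the block 1. IVD, an acyl-CoA dehydrogenase of leucine breakdown that hands electrons to the carrier, had signals of 2003 and 23814 in experiment 1 and of 5427 and 40692 in experiment 2, a 10.1-fold rise (3.34 ± 0.19, SE, limma adjusted p = 1.40e-06). The carrier's own subunits changed little in comparison. ETFBETA rose 1.57-fold (0.65 ± 0.20, limma adjusted p = 0.0270) and ETFALPHA 1.47-fold (0.56 ± 0.19, limma adjusted p = 0.0450), and for both the control and KIN10 signals overlapped between the experiments. On the spike-in scale neither was called (0.30, limma adjusted p = 0.245, for ETFBETA and 0.20, adjusted p = 0.446, for ETFALPHA), nor with arrays centred once on all probe sets (limma adjusted p = 0.102 and 0.162). With 1 array left out and the block dropped, the change of ETFBETA was 0.034 without the KIN10 array of experiment 2, and that of ETFALPHA was 0.019 without the control array of experiment 1. In all lists 6 of the 31 other genes were called higher and 7 lower, beside 16.6% and 16.4% of all probe sets. Of these genes, IVD and AT4G31810 were also called without the block (limma adjusted p = 0.0273 and 0.0346).

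Of 6 genes listed for lysine and pipecolate metabolism 4 were measured, of which 3 rose and 1 fell, with a median change of 1.55. AT4G33150 is 1 of the 3. Of all probe sets, 16.6% were called higher and 16.4% lower. AT1G07040 had signals of 4704 and 19709 in experiment 1 and of 12008 and 36208 in experiment 2. It rose 3.81-fold (1.93 ± 0.18, SE, limma adjusted p = 2.56e-05), about alike in the experiments (2.09 and 1.77). ALDH7B4, an aldehyde dehydrogenase of the family that oxidises aminoadipate semialdehyde, rose 2.24-fold (1.17 ± 0.17, limma adjusted p = 4.31e-04), with 1.22 and 1.11 in the experiments. AT5G52810 was 1.59-fold lower (-0.67 ± 0.20, limma adjusted p = 0.0237), with signals of 9666 and 4877 in experiment 1 and of 12793 and 8695 in experiment 2. It was not called with arrays centred once on all probe sets (limma adjusted p = 0.124). Nor was AT5G52810 called without the block (limma adjusted p = 0.408), the filter (0.203) or the intensity trend (0.107). Without the block the adjusted p of AT1G07040 was 0.0958 and that of ALDH7B4 was 0.0902 in limma. ALDH7B4 was also not called without the filter on low signals (limma adjusted p = 0.175).

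Of 21 genes listed for branched-chain amino acid breakdown before and along the valine branch 8 were measured. ALDH6B2 was the only one called higher, 2 were lower and 5 were not called, and the median change was 0.00. The shares over all probe sets were 16.6% called higher and 16.4% lower. AT4G31810 was 3.60-fold lower (-1.85 ± 0.25, SE, limma adjusted p = 2.89e-04), with signals of 2360 and 839 in experiment 1 and of 2263 and 428 in experiment 2. AT1G71180 was 2.61-fold lower (-1.38 ± 0.38, limma adjusted p = 0.0178), from 564 to 237 and from 445 to 135. AT4G29120 (0.49 ± 0.20), AT4G20930 (0.40 ± 0.24) and the aminotransferase gene ATBCAT-5 (-0.39 ± 0.21) were not called. The other 13 genes of the list are not analysed here.

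Among 13 listed alternative oxidases and type II NAD(P)H dehydrogenases 5 had a probe set of their own. These 5 were all type II dehydrogenases, so no alternative oxidase was measured. The probe sets of NDB3 and NDB4 were too dim to be tested. Of the 3 tested genes 1 was lower and none was higher, beside 16.4% and 16.6% of all probe sets. NDB2, one of the type II enzymes that pass electrons from NAD(P)H to ubiquinone, was 4.39-fold lower (-2.13 ± 0.22, SE, limma adjusted p = 4.78e-05), with signals of 6876 and 1202 in experiment 1 and of 10595 and 2736 in experiment 2. NDC1 was not called (-0.30 ± 0.22). Without the block NDB2 had a limma adjusted p of 0.0609. Of 17 genes listed for the main respiratory chain and ATP synthase 8 were measured, 1 called higher, 2 lower and 5 not called, with a median change of -0.25, beside 16.6% of all probe sets called higher and 16.4% lower. Both cytochrome c genes were lower, CYTC-1 by 1.60-fold (-0.68 ± 0.17, limma adjusted p = 0.0110) and CYTC-2 by 1.59-fold (-0.67 ± 0.19, limma adjusted p = 0.0181), and neither was called with arrays centred once (limma adjusted p = 0.137 and 0.118). SDH2-1, an iron-sulfur subunit of succinate dehydrogenase, has 2 probe sets of its own, of which 1 was bright enough to be tested. On that one it was 1.41-fold higher (0.49 ± 0.17, limma adjusted p = 0.0491), a call lost as soon as values were left as deposited (limma adjusted p = 0.0555), whereas SDH2-2 was not called (-0.20 ± 0.18).

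Of 16 genes listed for the aldehyde dehydrogenase family 8 were measured. ALDH6B2 and ALDH7B4 were the 2 genes called higher, 1 was lower and 5 were not called, and the family's median change was -0.05. Over all probe sets 16.6% were called higher and 16.4% lower. ALDH2C4, which acts in the synthesis of phenolic acids, was 2.33-fold lower (-1.22 ± 0.26, SE, limma adjusted p = 0.00402), with signals of 9862 and 2792 in experiment 1 and of 5312 and 2995 in experiment 2. ALDH11A3 was not called (0.54 ± 0.21). AT5G38710, the single gene measured for proline breakdown, was not called (0.05 ± 0.21), and the other 11 of the 12 genes listed for proline, glutamate, GABA and tyrosine breakdown are not analysed here.

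**Figure D4:**
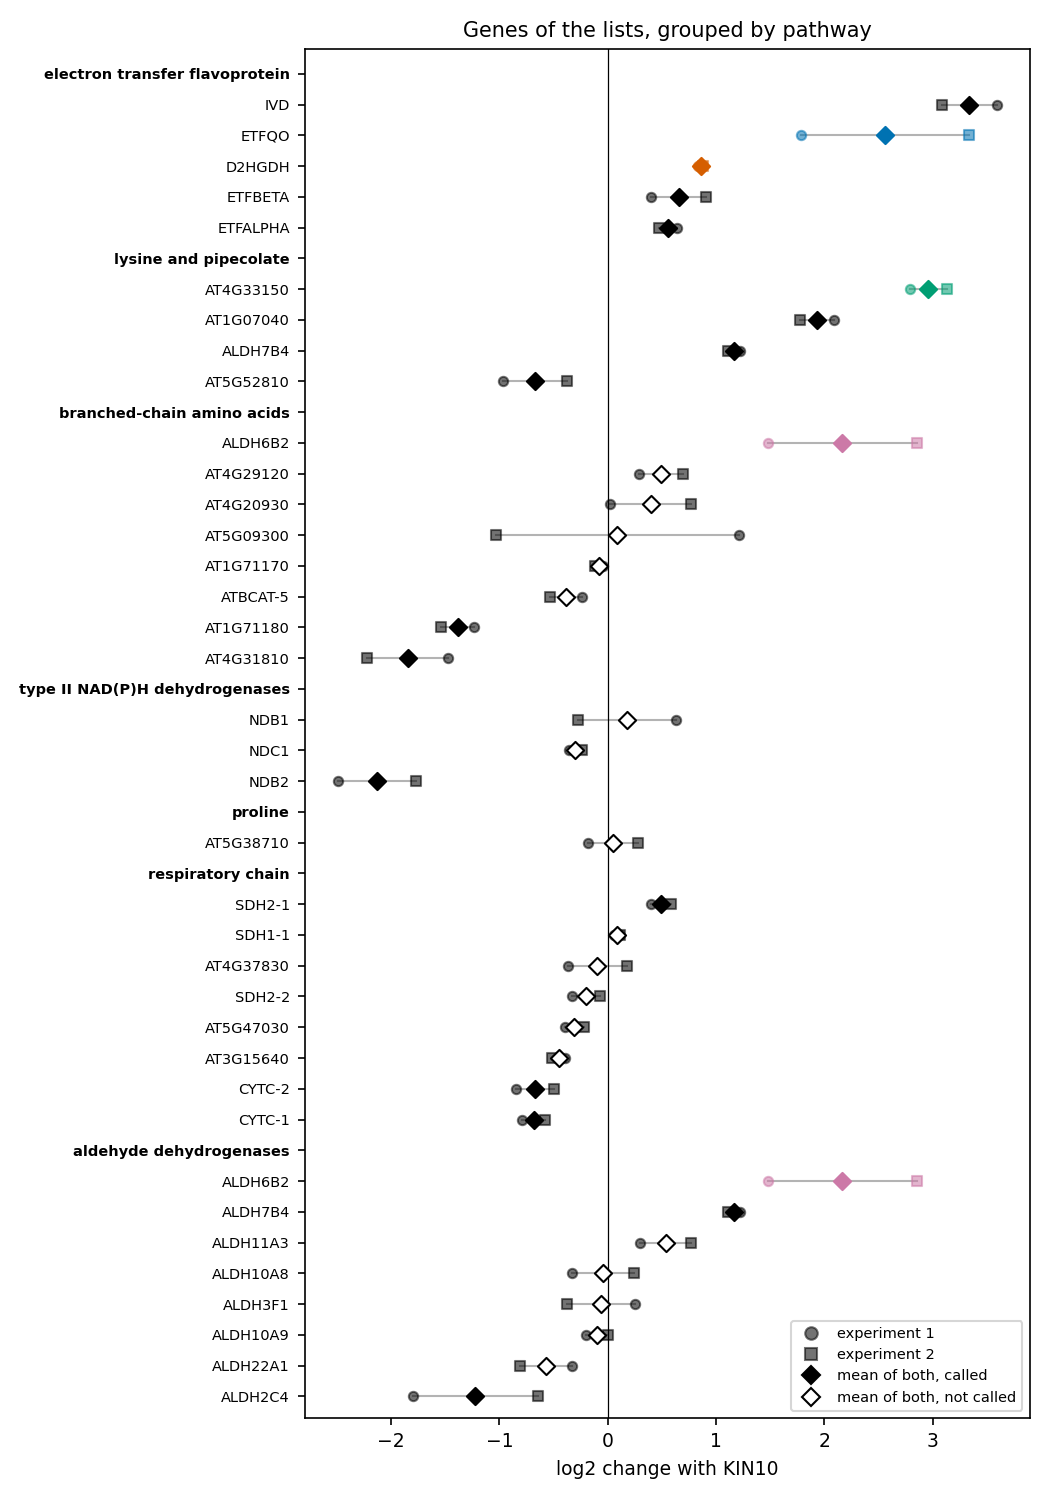
Log2 change with KIN10 (horizontal axis) of the 4 genes (coloured) and the other measured genes of the pathway lists (black), grouped by list; circles are experiment 1, squares experiment 2 and diamonds their mean, filled where called in limma. The flavoprotein list lies wholly to the right of 0, while NDB2, AT4G31810 and AT1G71180 lie to the left in both experiments.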

How the data were processed

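The deposited table holds linear probe set intensity values of 4 arrays. GCOS 1.0 is the only tool in the submitters' processing notes, with settings not given in the sources used here. The trimmed mean (2% at each end) was 1500.13 to 1500.15 on every array. With 2 arrays per group, their number limits the precision, and every signal of the 4 genes lay above its array's median (276 to 522).

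From these, 1 value at 0 was replaced by its array's smallest positive value and log2 was taken. The 64 control probe sets were set apart, the lowest 40% by mean log2 signal were removed, and arrays were then put on a common median over the 13648 kept (9098 were removed). Changes came from limma 3.58.1 under R 4.3.3 (lmFit, eBayes with an intensity trend, 1 residual degree of freedom, a prior of 9.67), with Benjamini-Hochberg adjustment over all 13648 and the experiment as a block, since the design text describes pairs. Same-numbered arrays also deviated together (r = 0.705 across probe sets). Centring once on all probe sets gave a prior of 1311 degrees of freedom, hence the second centring. The fit was also run on simulated data in which few probe sets changed, unlike the 33.0% called here, so that run does not check these calls.

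Names came from the platform annotation, updated by Entrez number through RefSeq (TAIR10.1), which matched 13436 of 13513 single-gene probe sets. 503 carried several names and 8730 none. The text names the 4 genes, list genes with a probe set of their own, and the 3 nearest patterns of each member. Members, lists and the second centring were chosen with earlier results of these data known. Alternatives changed the block, scaling, filter, an offset of 16, the prior, the trend and the arrays included.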

Additional observations from a re-analysis of the deposited data

How the results depend on the processing

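All 4 genes stayed higher under every alternative. With the block kept, log2 changes over 8 alternatives ran from 2.20 to 2.57 for ETFQO, 1.81 to 2.18 for ALDH6B2, 2.60 to 2.97 for AT4G33150 and 0.50 to 0.87 for D2HGDH, and the one call lost was D2HGDH on the spike-in scale (0.50). Without the replicate block the changes were the same, but ETFQO (2.56), ALDH6B2 (2.17) and D2HGDH (0.86) were not called in limma, and 419 probe sets were called higher and 366 lower, against 2270 and 2238. With 1 array left out and no block, changes ran from 1.37 to 3.76 for ETFQO, 0.46 to 1.26 for D2HGDH, 2.15 to 3.77 for AT4G33150 and 1.10 to 3.24 for ALDH6B2, with 356 to 1329 probe sets called higher and 265 to 1159 lower. Where these counts fell the cause was not tested, beyond fewer arrays and no block. On the spike-in scale 1318 were higher and 4301 lower. Beside 16.6% of all probe sets called higher and 16.4% lower, 6 of 31 other list genes were called higher and 7 lower. These were 1 (IVD) and 1 (AT4G31810) without the block, 3 and 4 with arrays centred once or with no intensity trend, 2 and 4 without the filter, and 3 and 13 on the spike-in scale. With 1 array left out they ran from 1 to 5 and from 2 to 3. Among the genes named above as not called, 4 changed sign when 1 array was left out: the marker FMA (-1.21 to 0.28), AT4G20930 (-0.025 to 0.82), ALDH11A3 (-0.074 to 1.15) and AT5G38710 (-0.59 to 0.68), which also did so as deposited (-0.057) and on the spike-in scale (-0.31). On the spike-in scale 3 genes named as not called were called lower. They were ATBCAT-5 (-0.74, limma adjusted p = 0.0116), NDC1 (-0.66, 0.0295) and SDH2-2 (-0.56, 0.0220). Sign changes were not counted over the uncalled genes that are not named. All 4 genes had signals above the median of their arrays.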
